A study of Rattus norvegicus with 18 samples.

Results

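The circadian clock genes described here are 10 transcripts, Arntl, Clock, Per1, Per2, Per3, Cry1, Cry2, Nr1d1, Nr1d2 and Dbp. They were chosen by gene name, and each name stands on 1 row of the 32623 genes listed for the series. All 10 passed the filter on low values, an FPKM (fragments per kilobase of transcript per unit of sequencing depth, a level per length) of at least 1 in at least 3 libraries. RNA-seq was taken from mesenchymal stem cells (MSCs) grown out of the femoral and tibial bone marrow of SD rats that were 2 months old, either miR-337-/- (KO) or wild type (WT). Cells at passage 3 on collagen-coated flexible plates were put through one of 3 treatments. In the CMS groups they were serum starved for 8 h and then given 10% cyclic mechanical stretch, labelled as 24 h. In the FBS groups they were starved in the same way and then given serum, labelled as 24 h. In the SSt groups they were kept in serum starvation, labelled as 24 h, and no 8 h of earlier starvation is labelled for them. The time from the start of starvation to harvest may therefore differ between SSt and treated groups. The part of such a difference in the results was not tested. There were 3 libraries in each of the 6 groups KO CMS, KO FBS, KO SSt, WT CMS, WT FBS and WT SSt. Neither the labels nor the methods tie the 3 libraries of a group to separate rats or cultures, and the p-values then cover only the differences among these libraries, which may be technical. The treatment time in the study's methods differs from that in the labels, and neither source gives the hour of day at harvest. Each group was taken at 1 time point, so a transcript that is higher throughout a cycle and a transcript that is at another phase of its cycle cannot be told apart in these data.

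In mammals the clock is a feedback loop of transcription that most cells run on their own, cultured fibroblasts and stromal cells included. ARNTL (also called BMAL1) and CLOCK pair up and bind E-box sequences to switch on the Period and Cryptochrome genes, whose proteins return to the nucleus and repress that pair. A second loop is formed by the nuclear receptors REV-ERBα and REV-ERBβ (Nr1d1 and Nr1d2), which compete with ROR receptors at the Arntl promoter and repress it. DBP is a direct target of ARNTL and CLOCK and itself activates genes that carry a D-box, Per genes among them. Serum is known to reset the clock of cultured cells, with a rapid and brief induction of Per1 and Per2, and mechanical cues have also been described as inputs to it.

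Promoter sequence from RefSeq (rat build GRCr8) was searched for the elements through which this loop is known to run, on both strands, from 250 bases before to 50 bases after each annotated start. Windows were given for 9 of the 10 genes, with 2 each for Clock and Nr1d1, and Arntl is listed there as Bmal1. The 3 upstream stretches of 250 bases below are shown because they carry such elements and belong to genes that moved in opposite directions with treatment, Per2 and Cry2 upward and, in WT cells, Arntl downward. They read 5′ to 3′ on the strand of the gene and end at the base before the annotated start. Capitals mark the matched elements, a D-box and then an E-prime box in Per2, an E-prime box on the other strand in Cry2 and a ROR/REV-ERB element in Arntl.
Per2, chr9:99496994-99497243, minus strand: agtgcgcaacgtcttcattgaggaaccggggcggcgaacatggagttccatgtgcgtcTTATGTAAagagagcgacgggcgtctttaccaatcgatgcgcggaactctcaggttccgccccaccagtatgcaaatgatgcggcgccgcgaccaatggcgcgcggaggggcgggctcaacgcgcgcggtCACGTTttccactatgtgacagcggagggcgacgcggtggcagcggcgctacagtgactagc
Cry2, chr3:98860438-98860687, minus strand: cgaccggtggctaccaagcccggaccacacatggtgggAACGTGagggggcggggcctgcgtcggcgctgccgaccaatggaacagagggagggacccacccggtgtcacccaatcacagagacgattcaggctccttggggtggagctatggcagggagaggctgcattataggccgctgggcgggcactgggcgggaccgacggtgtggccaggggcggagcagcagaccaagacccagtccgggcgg
Arntl, chr1:176766078-176766327, plus strand: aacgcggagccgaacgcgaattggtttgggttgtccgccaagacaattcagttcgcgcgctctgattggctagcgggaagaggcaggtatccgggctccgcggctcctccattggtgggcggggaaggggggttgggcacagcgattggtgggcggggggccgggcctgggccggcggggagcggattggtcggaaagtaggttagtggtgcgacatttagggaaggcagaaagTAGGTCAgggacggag

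The D-box letters searched were TTATGTAA and TTACGTAA, and 1.01% of all 33469 promoter windows hold 1 of them. The E-prime box CACGTT, a variant of the E-box bound by the same pair, is in 4.83% of windows, and the ROR/REV-ERB letters TAGGTCA or TGGGTCA are in 6.6%. The perfect E-box CACGTG, held by 6.42% of windows, was found in the second Nr1d1 window, and the first Nr1d1 window held CACGTT on the other strand. No letters of these kinds, nor the cAMP response element TGACGTCA (1.83% of windows), were found in the given windows of Per1, Per3, Nr1d2, Dbp and Clock. A match is a description of these letters and does not show a bound site. The stretches shown were picked with the directions of the genes known. In WT cells Per3, Nr1d2 and Dbp rose with treatment without such letters in their windows. Nr1d1, with both kinds of E-box in its windows, did not rise. Bases outside the windows were not searched, so a gene without such letters in its window may hold them elsewhere. The part of these elements in the responses was not tested.

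Depth ran from 56083000 counts per library to 71847969. Mir337 was listed with a count of 0 in all 18 libraries, so this row does not check the genotype labels. Transcripts that mark other cells were present beside those of MSCs. Of the 10 macrophage and blood markers used to look for this (among them Ptprc, Lyz2, Csf1r and Adgre1), all averaged at least 0.1 FPKM in KO SSt and Cd163 averaged under 0.1 FPKM in the 5 other groups. Their summed FPKM was 4030 to 4363 in KO CMS and 3997 to 4904 in KO FBS against 2140 to 2245 in KO SSt. It was 5951 to 6271 in WT CMS and 6187 to 6540 in WT FBS against 3570 to 3719 in WT SSt. The 10 MSC and stroma markers summed to 1258 to 1306, 1298 to 1468 and 1537 to 1587 in KO CMS, KO FBS and KO SSt. They summed to 914 to 944, 994 to 1020 and 1429 to 1451 in WT CMS, WT FBS and WT SSt. The transcript of Lepr, the receptor by which the study describes these cells, did not exceed 0.07 FPKM in any library. The study's description of its cultured MSCs rests on LepR protein by flow cytometry, and RNA and protein are unlike measures. Of 3 endothelial markers with a row, the sum stayed at or below 0.9 FPKM. The 6 genes of dividing cells summed to 24.2 to 30.8 in KO CMS and 30.3 to 76.9 in KO FBS against 289 to 321 in KO SSt. In WT their sum was 84.5 to 87.2 in WT CMS and 88.1 to 89 in WT FBS against 168 to 178 in WT SSt. The lowest of the KO FBS values, 30.3, belonged to replicate 1, against 70.8 and 76.9 in the other KO FBS libraries. These transcripts of dividing cells were thus highest in SSt in both genotypes. From EdU uptake the study reports the reverse for proliferation of MSCs that have miR-337, with starved cells quiescent and stretch or serum activating them. Under starvation it reports more EdU-positive cells in KO than in WT cultures, the same direction as these sums in SSt. The reason why the WT sums and the EdU results differ was not tested. The sums rest on few genes, Lyz2 being the largest at a mean of 3012 FPKM in KO CMS and 3230 in KO FBS against 1517 in KO SSt, and 4841 in WT CMS and 4987 in WT FBS against 2299 in WT SSt. Other members went the other way, such as Cd14 at 164 and 213 FPKM in WT CMS and WT FBS against 558 in WT SSt, and C1qa at 3.67 FPKM in KO CMS against 45.7 in KO SSt. Among the stroma markers Pdgfra averaged 155 FPKM in KO CMS and 145 in KO FBS against 37.5 in KO SSt, and 118 in WT CMS and 133 in WT FBS against 37.7 in WT SSt, while Thy1 and Itgb1 were lower in all 4 treated groups. The sums therefore do not measure a share of cells. The part of these marker differences and of replicate 1 in the clock gene results was not tested, and in bulk RNA more cells of a type and more transcript per cell cannot be told apart. KO and WT libraries stand in separate tables, and genotype and anything else that set the tables apart, such as a run, cannot be told apart.

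All 10 genes were expressed at low to moderate levels in every library. Nr1d1 had the highest level per length, a mean of 16.8 FPKM over the 18 libraries, followed by Arntl at 13.1, Dbp at 11 and Nr1d2 and Cry2 at 9.38 and 9.16. Per1 averaged 5.4, Clock 4.28, Cry1 4.02, Per3 3.72 and Per2 3.01 FPKM. The order differed between groups. Dbp averaged 14.1 FPKM in WT FBS, above Arntl at 11.3, but 5.85 FPKM in WT SSt, below Per1 at 8.43. The counts behind these levels ran from 491 (Per3 in a WT SSt library) to 4033 (Clock in a WT SSt library). The coefficient of variation between the replicates of a group ran from 0.9% to 20.1%. The genes differed in how far their group means moved. The highest group mean was 4.44 times the lowest for Per3, 2.47 times for Dbp and 2.42 times for Per2, but 1.24 times for Arntl and 1.14 times for Nr1d1.

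**Figure D1:**
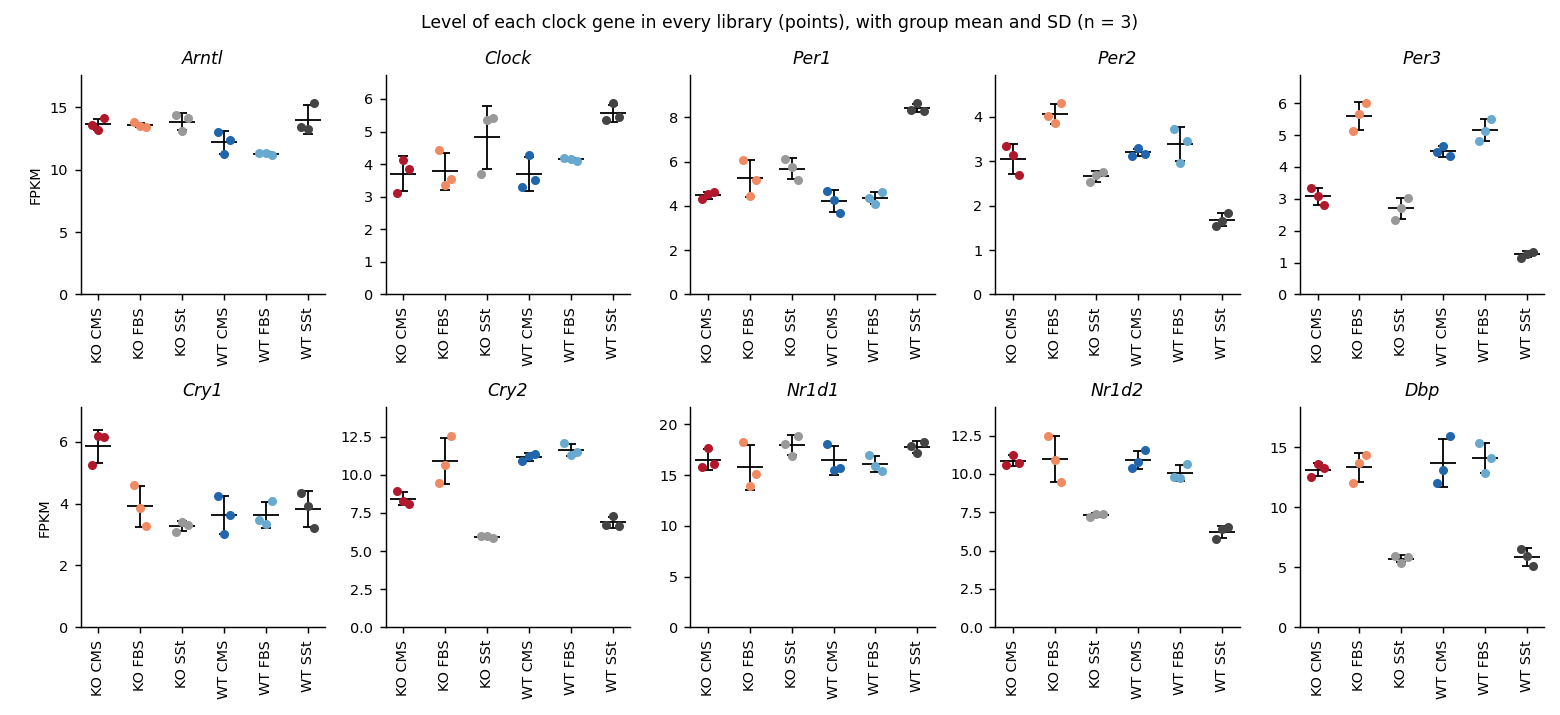
FPKM (y axes, each from 0) of the 10 clock genes in the 18 libraries, with KO groups left of WT groups and, in each genotype, CMS, FBS and SSt from left to right. Points are libraries, horizontal bars group means and whiskers SDs (n = 3), and the WT SSt libraries stand apart for Per1 (8.31 to 8.64), Per2 (1.55 to 1.84) and Per3 (1.16 to 1.34).

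In KO MSCs some of the 10 clock transcripts passed as higher after treatment and none passed as lower. The test used was edgeR's quasi-likelihood F test, with Benjamini-Hochberg adjustment over all genes tested and a threshold of 0.05. After CMS, 6 of 10 were higher than in KO SSt (Per2, Per3, Cry1, Cry2, Nr1d2 and Dbp), where 30.8% of all 12888 genes tested were higher, and 0 of 10 were lower, where 30.7% were lower. After FBS, 5 of 10 were higher than in KO SSt (Per2, Per3, Cry2, Nr1d2 and Dbp), against 30.3% of all genes, and 0 of 10 were lower, against 29.5%. DESeq2 also called 0 lower in these comparisons, and 0 of the lower values had an unadjusted p under 0.05. In other alternatives Per1 passed as lower after CMS in 5 of 17, with all 3 KO CMS libraries below KO SSt, and Clock after FBS without KO SSt replicate 1. The 5 calls after FBS held without KO FBS replicate 1, where Nr1d1 also passed as lower. With a fold of at least 2 there was 1 of 10 after CMS, Dbp, and 2 of 10 after FBS, Dbp and Per3, where 19.2% and 17.1% of all genes passed both limits. The median log2 fold change of the 10 was 0.31 after CMS and 0.48 after FBS, beside -0.002 and 0.016 over all genes tested.

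In WT MSCs the 10 genes moved in both directions. After CMS, 5 of 10 were higher than in WT SSt (Per2, Per3, Cry2, Nr1d2 and Dbp), where 34.6% of 12916 genes were higher, and 3 of 10 were lower (Per1, Clock and Arntl), where 32.3% were lower. After FBS the same 5 genes were higher, against 33.7% of all genes, and 4 of 10 were lower (Per1, Clock, Arntl and Nr1d1), against 32.7%. A fold of at least 2 was reached by 3 genes after CMS (Per3, Dbp and Per1) and 2 after FBS (Per3 and Dbp), where 16.7% and 16.1% of all genes passed both limits. Most genes tested changed in each of the 4 comparisons with SSt, and the shares of the 10 genes in WT lie near that background or within 2 genes of it. The median log2 fold change of the 10 was 0.29 after CMS and 0.27 after FBS, beside 0.017 and 0.012 over all genes.

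**Figure D2:**
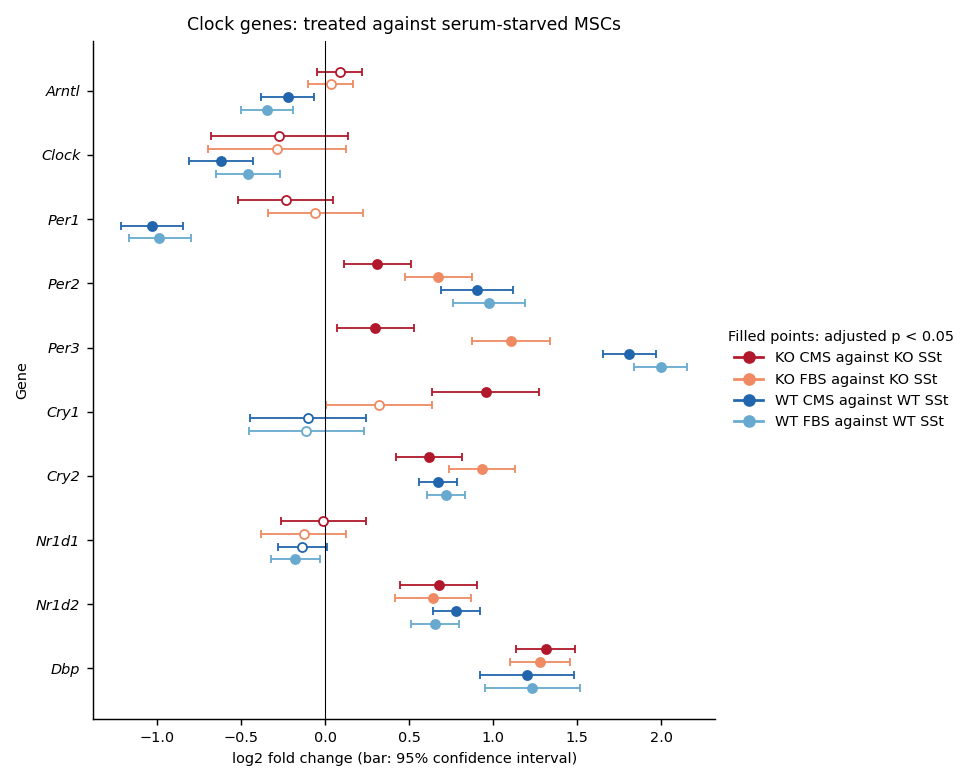
Log2 fold change (x axis) of each clock gene in KO CMS, KO FBS, WT CMS and WT FBS, each against the SSt group of its genotype, with bars for the 95% confidence interval. Filled points passed an adjusted p of 0.05. Dbp, Nr1d2, Cry2, Per2 and Per3 lie right of 0 in all 4 comparisons. Per1 lies at -0.24 and -0.057 in KO cells but near -1 in WT cells (-1.03 and -0.99).

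The Period genes encode the repressors that accumulate and close the main loop, and they differed from each other in direction. Per3 is the Period gene whose loss has the mildest effects on rhythm in mice. It had 3.34, 3.1 and 2.81 FPKM in KO CMS and 5.13, 5.65 and 6 FPKM in KO FBS, against 2.35, 2.72 and 3.04 FPKM in KO SSt. In WT cells it had 4.47, 4.67 and 4.35 FPKM after CMS and 4.83, 5.14 and 5.51 FPKM after FBS, against 1.16, 1.27 and 1.34 FPKM in SSt. KO CMS and KO SSt libraries overlapped, whereas treated and starved WT libraries were far apart. In KO cells Per3 rose 2.15-fold with FBS (log2 change 1.11, SE 0.101, adjusted p = 2.48e-05) and 1.23-fold with CMS (log2 change 0.3, SE 0.1, adjusted p = 0.0279). The CMS call was lost without KO CMS replicate 1 at 0.24 (adjusted p = 0.0903) and without KO CMS replicate 2 at 0.295 (adjusted p = 0.0674). It was also lost without KO SSt replicate 1 at 0.21 (adjusted p = 0.0951) and without KO SSt replicate 2 at 0.3 (adjusted p = 0.0675). With counts scaled to library size alone it was 0.19 (adjusted p = 0.161), and the call failed in 9 of 17 alternatives. In WT cells Per3 rose 3.5-fold with CMS (log2 change 1.81, SE 0.0703, adjusted p = 9.49e-09) and 3.99-fold with FBS (log2 change 2, SE 0.0705, adjusted p = 5.28e-09). The rise was smaller in KO than in WT cells after CMS (log2 difference -1.505, SE 0.127, adjusted p = 6.32e-07) and after FBS (log2 difference -0.88, SE 0.126, adjusted p = 9.79e-05), in an interaction test over all 18 libraries.

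Per2, a core repressor whose transcript responds to serum, had 3.35, 3.14 and 2.69 FPKM in KO CMS and 4.02, 3.86 and 4.31 FPKM in KO FBS, against 2.53, 2.69 and 2.76 FPKM in KO SSt. WT libraries held 3.13, 3.29 and 3.17 FPKM after CMS and 3.74, 2.97 and 3.46 FPKM after FBS, against 1.55, 1.66 and 1.84 FPKM in SSt. The gap to SSt was clear in every comparison but KO CMS, in which 1 library fell inside the KO SSt range. Per2 rose 1.24-fold with CMS (log2 change 0.31, SE 0.0876, adjusted p = 0.0128) and 1.59-fold with FBS (log2 change 0.67, SE 0.0877, adjusted p = 0.000196) in KO cells. It rose 1.87-fold with CMS (log2 change 0.9, SE 0.0956, adjusted p = 1.61e-05) and 1.97-fold with FBS (log2 change 0.98, SE 0.0957, adjusted p = 9.13e-06) in WT cells. The KO CMS call was lost in 4 of 16 alternatives, among them counts scaled to library size alone, at a log2 fold change of 0.2 (adjusted p = 0.0838). The CMS response was smaller in KO than in WT cells (log2 difference -0.59, SE 0.132, adjusted p = 0.00211). For FBS the difference did not pass (log2 difference -0.29, SE 0.132, adjusted p = 0.1). It did pass without WT FBS replicate 2 at -0.38 (adjusted p = 0.0305) and with library-size scaling at -0.4 (adjusted p = 0.0271).

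Per1, the Period gene that answers first to serum and to glucocorticoids in many cells, ran the other way. Its levels were 4.31, 4.52 and 4.61 FPKM in KO CMS and 6.09, 4.47 and 5.15 FPKM in KO FBS, against 6.14, 5.75 and 5.19 FPKM in KO SSt. They were 4.66, 4.28 and 3.69 FPKM in WT CMS and 4.36, 4.1 and 4.64 FPKM in WT FBS, against 8.33, 8.64 and 8.31 FPKM in WT SSt. The 3 WT SSt libraries were above all 15 others. In KO cells the difference from SSt did not pass after CMS (log2 change -0.235, SE 0.125, adjusted p = 0.133, 95% interval -0.52 to 0.049) or FBS (log2 change -0.057, SE 0.125, adjusted p = 0.716, 95% interval -0.34 to 0.23). The CMS value passed in 5 of 17 alternatives, among them library-size scaling at -0.35 (adjusted p = 0.0251). In WT cells Per1 fell to levels 2.04-fold lower than in SSt after CMS (log2 change -1.03, SE 0.0824, adjusted p = 2.05e-06) and 1.98-fold lower after FBS (log2 change -0.985, SE 0.0823, adjusted p = 2.76e-06). The response differed between genotypes after CMS (log2 difference 0.8, SE 0.155, adjusted p = 0.000691) and after FBS (log2 difference 0.94, SE 0.155, adjusted p = 0.000301).

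The summed FPKM of Per1, Per2 and Per3 was 10.6 ± 0.457 in KO CMS and 14.9 ± 0.799 in KO FBS against 11.1 ± 0.093 in KO SSt (SD, n = 3 each). It was 11.9 ± 0.603 in WT CMS and 12.9 ± 0.701 in WT FBS against 11.4 ± 0.28 in WT SSt. Per1 supplied 39.2%, 42% and 45.6% of it in the KO CMS libraries and 40.0%, 32% and 33.3% in KO FBS, against 55.7%, 51.5% and 47.2% in KO SSt. In WT cells Per1 supplied 38%, 35% and 32.9% after CMS and 33.7%, 33.6% and 34.1% after FBS, against 75.5%, 74.7% and 72.3% in SSt. Per3 took 37.6% ± 3.55 in KO FBS against 24.5% ± 3.15 in KO SSt, and 40.0% ± 2.4 in WT FBS against 11% ± 0.59 in WT SSt (SD, n = 3 each). So treated cells of either genotype had the 3 transcripts in more even shares, and WT cells in serum starvation had mostly Per1. These shares are a description of FPKM values within each library and were not tested.

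**Figure D3:**
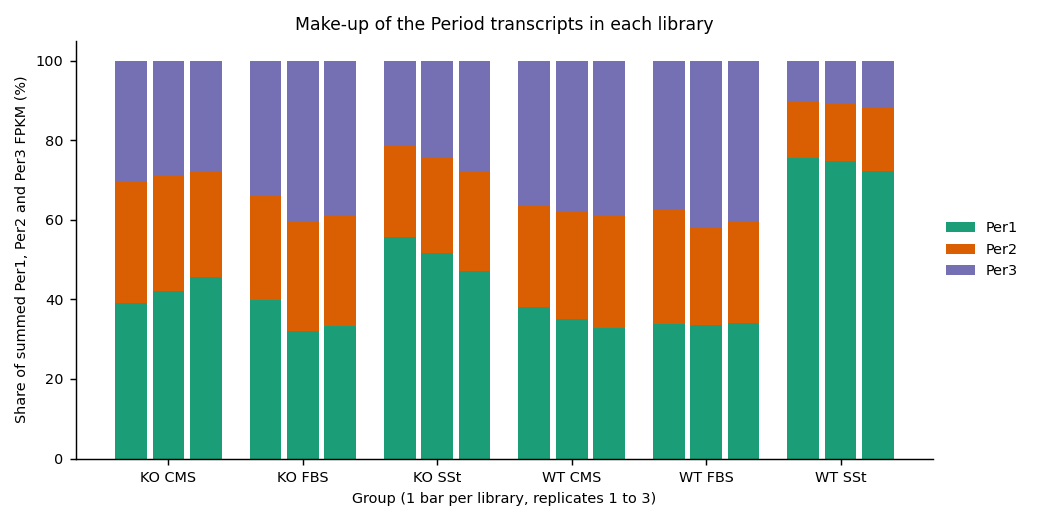
Share (y axis, %) of Per1, Per2 and Per3 in the summed FPKM of the 3 genes, with 1 stacked bar per library and replicates 1 to 3 side by side in each group. Per1 makes up at most 55.7% of the bar in the other 15 libraries and 72.3% to 75.5% in the WT SSt libraries.

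The Cryptochromes are the other repressors of the loop, and CRY1 is the stronger of the pair in mouse cells. Cry2 had 8.93, 8.27 and 8.11 FPKM in KO CMS and 9.5, 10.7 and 12.6 FPKM in KO FBS, against 5.96, 5.99 and 5.84 FPKM in KO SSt. It had 10.9, 11.2 and 11.4 FPKM in WT CMS and 12.1, 11.3 and 11.5 FPKM in WT FBS, against 6.68, 7.31 and 6.67 FPKM in WT SSt. Every treated library was above every starved library of either genotype. Cry2 rose 1.53-fold with CMS (log2 change 0.62, SE 0.0857, adjusted p = 0.000248) and 1.91-fold with FBS (log2 change 0.935, SE 0.086, adjusted p = 2.6e-05) in KO cells. The WT rises were 1.59-fold with CMS (log2 change 0.67, SE 0.0496, adjusted p = 1.06e-06) and 1.65-fold with FBS (log2 change 0.72, SE 0.0496, adjusted p = 6.53e-07). The responses of the genotypes were not shown to differ for CMS (log2 difference -0.052, SE 0.101, adjusted p = 0.711) or FBS (log2 difference 0.23, SE 0.1, adjusted p = 0.092). The FBS value passed at 0.3 (adjusted p = 0.02) without KO FBS replicate 1.

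Cry1 stood out in a single group. It had 5.25, 6.19 and 6.16 FPKM in KO CMS and 4.6, 3.85 and 3.27 FPKM in KO FBS, against 3.09, 3.41 and 3.3 FPKM in KO SSt. WT cells had 4.25, 3.01 and 3.62 FPKM after CMS and 3.47, 3.33 and 4.1 FPKM after FBS, against 4.36, 3.91 and 3.21 FPKM in SSt. The 3 KO CMS libraries were above all others, and the WT groups overlapped fully. Cry1 rose 1.94-fold with CMS in KO cells (log2 change 0.955, SE 0.14, adjusted p = 0.000348). The other comparisons with SSt did not pass, with 0.32 (adjusted p = 0.0762) in KO FBS, -0.1 (adjusted p = 0.583) in WT CMS and -0.11 (adjusted p = 0.546) in WT FBS. KO FBS passed at 0.44 (adjusted p = 0.0174) without KO FBS replicate 3. The CMS response was larger in KO than in WT cells (log2 difference 1.06, SE 0.218, adjusted p = 0.00106). For FBS the difference did not pass (log2 difference 0.445, SE 0.218, adjusted p = 0.129). Cry1 made up 41% ± 3.45 of the summed Cry1 and Cry2 FPKM in KO CMS against 35.5% ± 1.2 in KO SSt, and 24.4% ± 3.46 in WT CMS against 35.6% ± 3.55 in WT SSt (SD, n = 3 each).

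Of the activators of the loop, Arntl moved little. It had 13.6, 13.2 and 14.1 FPKM in KO CMS and 13.8, 13.5 and 13.4 FPKM in KO FBS, against 14.3, 13.1 and 14.1 FPKM in KO SSt, and these groups overlapped. It had 13, 11.2 and 12.4 FPKM in WT CMS and 11.3, 11.3 and 11.2 FPKM in WT FBS, against 13.4, 13.3 and 15.3 FPKM in WT SSt, and here no treated library reached the lowest starved one. In KO cells Arntl did not pass after CMS (log2 change 0.088, SE 0.0592, adjusted p = 0.227, 95% interval -0.047 to 0.22) or FBS (log2 change 0.033, SE 0.0592, adjusted p = 0.659, 95% interval -0.1 to 0.17). In WT cells it fell, to levels 1.17-fold lower after CMS (log2 change -0.22, SE 0.069, adjusted p = 0.016) and 1.27-fold lower after FBS (log2 change -0.35, SE 0.0691, adjusted p = 0.00133). The CMS call was lost at -0.165 (adjusted p = 0.0561) without WT CMS replicate 2 and at -0.16 (adjusted p = 0.0556) without WT SSt replicate 3. The response differed between genotypes for FBS (log2 difference 0.39, SE 0.0919, adjusted p = 0.00394) and for CMS (log2 difference 0.32, SE 0.0919, adjusted p = 0.0112). The CMS difference did not pass in 5 of 23 alternatives, among them library-size scaling at 0.17 (adjusted p = 0.116).

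Clock, the partner of ARNTL, had 3.1, 4.14 and 3.85 FPKM in KO CMS and 4.44, 3.36 and 3.55 FPKM in KO FBS, against 3.71, 5.36 and 5.41 FPKM in KO SSt. In WT cells the values were 3.3, 4.28 and 3.5 FPKM after CMS and 4.18, 4.17 and 4.1 FPKM after FBS, against 5.37, 5.87 and 5.45 FPKM in SSt. The KO SSt libraries were split, with replicate 1 among the treated values, and WT treated libraries were all below WT SSt. The KO values did not pass after CMS (log2 change -0.27, SE 0.18, adjusted p = 0.222) or FBS (log2 change -0.29, SE 0.18, adjusted p = 0.199), but the FBS value passed at -0.445 (adjusted p = 0.0491) without KO SSt replicate 1. Clock fell in WT cells to levels 1.53-fold lower after CMS (log2 change -0.62, SE 0.0851, adjusted p = 0.000109) and 1.37-fold lower after FBS (log2 change -0.46, SE 0.0848, adjusted p = 0.000839). The difference between the genotypes' responses did not pass for CMS (log2 difference 0.35, SE 0.214, adjusted p = 0.205) or FBS (log2 difference 0.18, SE 0.214, adjusted p = 0.552), so the fall of Clock is not shown to differ between KO and WT cells.

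The REV-ERB receptors of the second loop behaved unlike each other. Nr1d2 had 10.6, 11.2 and 10.7 FPKM in KO CMS and 12.5, 10.9 and 9.5 FPKM in KO FBS, against 7.2, 7.37 and 7.41 FPKM in KO SSt. It had 10.4, 10.8 and 11.5 FPKM in WT CMS and 9.79, 9.72 and 10.6 FPKM in WT FBS, against 5.75, 6.39 and 6.52 FPKM in WT SSt. All treated libraries were above all starved ones. Nr1d2 rose 1.6-fold with CMS (log2 change 0.68, SE 0.0999, adjusted p = 0.000364) and 1.56-fold with FBS (log2 change 0.64, SE 0.0999, adjusted p = 0.000544) in KO cells. The rises in WT cells were 1.72-fold with CMS (log2 change 0.78, SE 0.0631, adjusted p = 2.14e-06) and 1.57-fold with FBS (log2 change 0.66, SE 0.0631, adjusted p = 7.92e-06). The differences between the genotypes' responses were -0.1 for CMS (95% interval -0.36 to 0.16) and 0 for FBS (95% interval -0.26 to 0.26) on the log2 scale, and neither passed.

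Nr1d1 had 15.8, 17.7 and 16.1 FPKM in KO CMS and 18.2, 13.9 and 15.1 FPKM in KO FBS, against 18.1, 16.9 and 18.9 FPKM in KO SSt. The WT values were 18.1, 15.5 and 15.7 FPKM after CMS and 17, 15.9 and 15.4 FPKM after FBS, against 17.9, 17.1 and 18.2 FPKM in SSt. The groups lay close together, and the log2 fold changes were -0.011 (adjusted p = 0.94) in KO CMS, -0.13 (adjusted p = 0.36) in KO FBS, -0.14 (adjusted p = 0.0919) in WT CMS and -0.18 (adjusted p = 0.0367) in WT FBS. The WT FBS value passed the test, but not in 10 of 17 alternatives. These include leaving out WT FBS replicate 2 at -0.17 (adjusted p = 0.0891), WT FBS replicate 3 at -0.14 (adjusted p = 0.119), and likewise WT SSt replicate 1 at -0.175 (adjusted p = 0.0762) or WT SSt replicate 3 at -0.16 (adjusted p = 0.0986). With upper-quartile scaling it was -0.11 (adjusted p = 0.139). In the other direction, WT CMS passed at -0.21 (adjusted p = 0.00773) without WT CMS replicate 1, and KO FBS at -0.27 (adjusted p = 0.0154) without KO FBS replicate 1. By the deposited coordinates Nr1d1 shares 1059 bases with Thra, the thyroid hormone receptor gene on the opposite strand, which ran from 14.7 to 22.4 FPKM. The sources used here do not say whether reads were counted by strand, so reads of the 2 genes over that stretch may not be told apart. With Nr1d2 higher and Nr1d1 nearly level, Nr1d1 made up 60.4% ± 0.698 of the summed FPKM of the pair in KO CMS and 59% ± 2.67 in KO FBS against 71% ± 1.17 in KO SSt (SD, n = 3 each). Its share was 60.1% ± 3.09 in WT CMS and 61.6% ± 2.23 in WT FBS against 74.1% ± 1.45 in WT SSt.

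Dbp, the output factor that reads the activity of ARNTL and CLOCK, rose with both treatments in both genotypes. It had 12.5, 13.6 and 13.3 FPKM in KO CMS and 12, 13.6 and 14.3 FPKM in KO FBS, against 5.91, 5.36 and 5.85 FPKM in KO SSt. In WT cells it had 12, 13.1 and 15.9 FPKM after CMS and 15.3, 12.8 and 14.1 FPKM after FBS, against 6.54, 5.93 and 5.07 FPKM in SSt. The lowest treated library, at 12 FPKM, lay well above the highest starved one of either genotype, at 6.54 FPKM. Dbp rose 2.48-fold with CMS (log2 change 1.31, SE 0.0781, adjusted p = 1.6e-06) and 2.43-fold with FBS (log2 change 1.28, SE 0.0781, adjusted p = 2.44e-06) in KO cells. In WT cells the rises were 2.3-fold with CMS (log2 change 1.2, SE 0.125, adjusted p = 1.43e-05) and 2.35-fold with FBS (log2 change 1.23, SE 0.125, adjusted p = 1.21e-05). The genotypes' responses differed by 0.11 for CMS (95% interval -0.21 to 0.44) and 0.058 for FBS (95% interval -0.27 to 0.385) on the log2 scale, and neither difference passed.

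Over the 10 genes the interaction test gave 5 that differed between KO and WT in the response to CMS. There were 3 with a higher value in KO (Per1, Cry1 and Arntl), where 21.6% of 13317 genes tested were higher, and 2 with a lower value (Per2 and Per3), where 23.2% were lower. For the response to FBS it gave 3, of which Per1 and Arntl were higher, against 18.5% of all genes, and Per3 was lower, against 17.2%. The responses of both genotypes are each measured against their own SSt libraries, so the CMS and FBS differences share the 6 starved libraries. The median over the 10 genes was 0.12 in both tests, beside -0.046 for CMS and -0.014 for FBS over all genes tested.

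The comparison of KO with WT within each treatment shows where these differences lay. In serum starvation 2 of 10 were higher in KO, where 24.2% of all genes were higher. These were Per3 (2.04-fold, log2 change 1.03, SE 0.0909, adjusted p = 4.46e-07) and Per2 (1.5-fold, log2 change 0.585, SE 0.094, adjusted p = 0.000128). In the same comparison 2 of 10 were lower, where 23.2% were lower. These were Per1 (log2 change -0.64, SE 0.109, adjusted p = 0.000224) and Cry2 (log2 change -0.29, SE 0.0713, adjusted p = 0.0038). The Cry2 call did not pass in 1 of 17 alternatives, limma with a pseudocount of 5, at -0.12 (adjusted p = 0.0725). Per1 averaged 5.69 ± 0.479 FPKM in KO SSt and 8.43 ± 0.185 FPKM in WT SSt, Per2 2.66 ± 0.118 and 1.68 ± 0.145 FPKM, and Per3 2.7 ± 0.342 and 1.26 ± 0.091 FPKM (SD, n = 3 each). All 3 Period genes thus lay nearer to the treated levels in starved KO than in starved WT cells.

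After FBS the genotypes were closer, with 2 of 10 higher in KO, against 13.5% of all genes, and 0 of 10 lower, against 12.3%. DESeq2 also called 0 lower, and 0 of the lower values had an unadjusted p under 0.05. The genes that were higher were Arntl (log2 change 0.3, SE 0.0651, adjusted p = 0.00321) and Per2 (log2 change 0.29, SE 0.0929, adjusted p = 0.0303). The replicate block compared the genotypes at the level of replicate 1, and with it counted the Per2 call failed in 10 of 16 alternatives. These include leaving out KO FBS replicate 1 at 0.28 (adjusted p = 0.0719), KO FBS replicate 3 at 0.26 (adjusted p = 0.0827), WT FBS replicate 2 at 0.2 (adjusted p = 0.143) or WT FBS replicate 3 at 0.31 (adjusted p = 0.0618). Conversely Per1 (log2 change 0.3, SE 0.11, adjusted p = 0.0576) passed at 0.41 (adjusted p = 0.0106) without KO FBS replicate 2 and by DESeq2 at 0.295 (adjusted p = 0.0441). Nr1d2 passed at 0.26 (adjusted p = 0.0181) and Cry2, lower in KO, at -0.16 (adjusted p = 0.0459) without KO FBS replicate 3. Per3, which differed in starvation, was at 5.6 ± 0.439 FPKM in KO FBS and 5.16 ± 0.339 FPKM in WT FBS (SD, n = 3 each, log2 change 0.15, SE 0.0883, adjusted p = 0.238).

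After CMS 2 of 10 were higher in KO, against 18.7% of all genes, and 2 of 10 lower, against 21%. Cry1 was 1.69-fold higher (log2 change 0.76, SE 0.155, adjusted p = 0.00118). Arntl was also higher (log2 change 0.225, SE 0.065, adjusted p = 0.0122). That call failed in 6 of 17 alternatives, among them without KO CMS replicate 3 at 0.2 (adjusted p = 0.0527) and without WT CMS replicate 2 at 0.17 (adjusted p = 0.0618). Per3 was lower, at 3.08 ± 0.264 FPKM in KO CMS and 4.49 ± 0.162 FPKM in WT CMS (SD, n = 3 each, log2 change -0.48, SE 0.0889, adjusted p = 0.000589), the opposite of its direction in starvation. Cry2 was lower too (log2 change -0.34, SE 0.071, adjusted p = 0.00139). Dbp, Nr1d1, Nr1d2 and Clock did not pass in any of the 3 comparisons between the genotypes with all libraries and the edgeR test. In SSt Nr1d2 was higher in KO in 4 of 17 alternatives, among them library-size scaling at 0.24 (adjusted p = 0.0228).

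**Figure D4:**
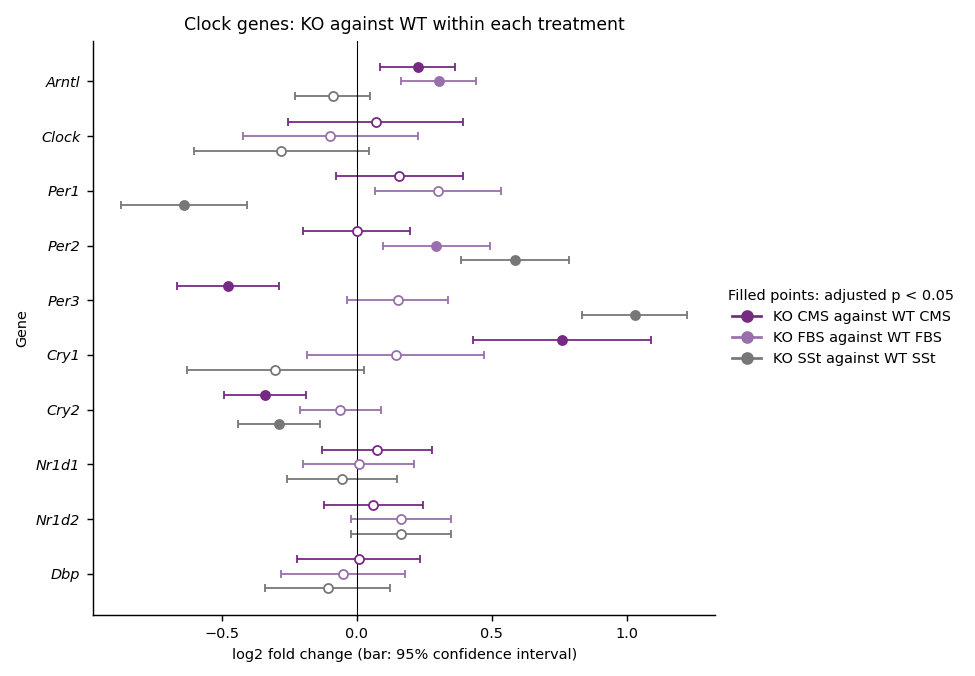
Log2 fold change (x axis) of each clock gene in KO over WT cells after CMS, after FBS and in SSt, with 95% confidence intervals and filled points for an adjusted p under 0.05. Per3 lies at -0.48 after CMS, 0.15 after FBS and 1.03 in SSt, and Per1 is below 0 only in SSt (-0.64).

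Stretched and serum-treated cells of each genotype were also compared with each other. Between WT CMS and WT FBS 0 of 10 passed edgeR's test, where 3.91% of all genes were higher after CMS and 5.03% lower, although Per3 (-0.19) had an unadjusted p under 0.05 and DESeq2 called 0. Clock passed at -0.28 (adjusted p = 0.0214) without WT CMS replicate 2. Between KO CMS and KO FBS 1 of 10 was higher after CMS, against 6.73% of all genes, and 3 of 10 were lower, against 8.09%. Cry1 was higher (log2 change 0.63, SE 0.139, adjusted p = 0.0189). Per3 was lower (log2 change -0.81, SE 0.1, adjusted p = 0.00171), at 2.81 to 3.34 FPKM in KO CMS against 5.13 to 6 FPKM in KO FBS, and this call held in all 17 alternatives. Per2 (log2 change -0.36, SE 0.0874, adjusted p = 0.0274) and Cry2 (log2 change -0.32, SE 0.0852, adjusted p = 0.0396) were also lower.

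The other KO calls between stretch and serum did not hold in all alternatives. With all libraries kept, Cry1, Per2 and Cry2 did not pass with only the groups compared (0.64 (adjusted p = 0.0599), -0.36 (adjusted p = 0.0797) and -0.31 (adjusted p = 0.108)). Cry1 no longer passed without KO CMS replicate 2 at 0.59 (adjusted p = 0.0692), KO CMS replicate 3 at 0.59 (adjusted p = 0.0733) or KO FBS replicate 2 at 0.61 (adjusted p = 0.0668). Per2 no longer passed without KO CMS replicate 2 at -0.38 (adjusted p = 0.0705), KO CMS replicate 3 at -0.28 (adjusted p = 0.0803) or KO FBS replicate 3 at -0.33 (adjusted p = 0.09). Cry2 passed only without KO FBS replicate 1 among the 6 fits that left out 1 library, and otherwise lay between -0.35 (adjusted p = 0.0509) without KO CMS replicate 1 and -0.215 (adjusted p = 0.0871) without KO FBS replicate 3. Nr1d1 passed at 0.26 (adjusted p = 0.0413) without KO FBS replicate 1. The count was 4 with all libraries and 5 without KO FBS replicate 1, the library with few transcripts of dividing cells. The background moved too, at 3158 of 12888 genes without KO FBS replicate 1, against 868 higher and 1042 lower with all libraries, and it was 879 to 1810 without another library of these groups.

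Genes whose 6 group means were most like those of a clock gene were found by Pearson's r over the means of log2(FPKM + 1), among 13316 other genes, as a description with 6 points that share their libraries and depth. The nearest to Per3 were Casp12 (r = 0.993), Sp110 (0.992) and Coro2b (0.992), and the nearest to Per1 were Mboat7l1 (0.997), Itga7 (0.993) and Il13ra2 (0.992). Dbp was nearest to Nsdhl (0.999) and Acss2 (0.999), enzymes of sterol and acetyl-CoA synthesis, and to Vac14 (0.999). Per2 was nearest to Hook2 (0.997), Cry2 to Rnf144b (0.998), Nr1d2 to Cd81 (0.997), Clock to Btbd3 (0.996), Nr1d1 to Cachd1 (0.995), Cry1 to Ubald2 (0.99) and Arntl to Isca2 (0.967). Among the clock genes themselves r was highest for Per2 with Per3 (0.968) and Nr1d2 with Dbp (0.959). It was lowest for Clock with Nr1d2 (-0.986), Nr1d1 with Dbp (-0.942) and Cry2 with Nr1d1 (-0.925). Per1 with Per3 had -0.831.

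A list of 18 other genes of the clock was set beside the 10, of which 15 were tested in KO and 14 in WT. Rorb and Hlf averaged 0.25 and 0.04 FPKM and were not tested, and Fbxl21 was tested in KO only. Of the 15 in KO, 8 were higher and 5 lower after CMS, where 30.8% of all genes tested were higher and 30.7% lower. After FBS 6 were higher and 4 lower, against 30.3% and 29.5% of all genes. Of the 14 in WT, 4 were higher and 6 lower after CMS, against 34.6% and 32.3% of all genes. After FBS 5 were higher and 5 lower, against 33.7% and 32.7%. The list median log2 fold change was 0.25 in KO CMS, 0.11 in KO FBS, -0.13 in WT CMS and 0.045 in WT FBS, while the backgrounds are those given for the 10 genes.

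Among repressors of the activator pair, Bhlhe41 (DEC2) moved furthest upward. It had 43.3, 48 and 49.9 FPKM in KO CMS and 22, 30.6 and 25.4 FPKM in KO FBS against 4.01, 5.51 and 6.68 FPKM in KO SSt. The log2 fold changes were 3.23 (adjusted p = 1.38e-06) and 2.32 (adjusted p = 9.74e-06). In WT cells it had 41.4, 41.9 and 42.6 FPKM after CMS and 38.1, 41.4 and 39.1 FPKM after FBS against 4.43, 5.23 and 5.01 FPKM in SSt. The log2 fold changes there were 3.075 (adjusted p = 2.21e-10) and 2.98 (adjusted p = 2.91e-10). Its relative Bhlhe40 (DEC1), the most abundant of the list at a mean of 43.3 FPKM, rose with CMS in KO cells by 0.25 (adjusted p = 0.00472) on the log2 scale and was at 0.1 (adjusted p = 0.182) with FBS. In WT cells Bhlhe40 rose by 0.96 (adjusted p = 3.37e-08) with CMS and 1.09 (adjusted p = 1.35e-08) with FBS. Its responses differed between genotypes (-0.7 for CMS, adjusted p = 2.74e-06, and -0.98 for FBS, adjusted p = 4.5e-07).

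Other factors that act through the D-box moved in both directions. Tef, a relative of DBP that activates through the same D-box, rose with log2 fold changes of 1.39 (adjusted p = 4.46e-07) in KO CMS, 1.33 (adjusted p = 7.8e-07) in KO FBS, 1.555 (adjusted p = 8.61e-09) in WT CMS and 1.51 (adjusted p = 1.08e-08) in WT FBS. Nfil3 (E4BP4), which represses through that element, had 13.9, 9.31 and 10.8 FPKM in KO CMS and 9.64, 9.45 and 8.05 FPKM in KO FBS against 17.6, 16.3 and 16.2 FPKM in KO SSt. It had 8.09, 8.8 and 7.3 FPKM in WT CMS and 7.86, 7.03 and 7.1 FPKM in WT FBS against 25.5, 25.9 and 25.3 FPKM in WT SSt. It fell in all 4 comparisons, with log2 fold changes of -0.45 (adjusted p = 0.0199), -0.82 (adjusted p = 0.000939), -1.69 (adjusted p = 1.92e-08) and -1.84 (adjusted p = 1.13e-08) in KO CMS, KO FBS, WT CMS and WT FBS. The fall was smaller in KO than in WT cells (1.24 for CMS, adjusted p = 2.65e-05, and 1.02 for FBS, adjusted p = 0.000256).

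Of the remaining genes, the kinase genes Csnk1d and Csnk1e, whose products phosphorylate the Period proteins, averaged 41.9 and 14.1 FPKM. Csnk1d had log2 fold changes of 0.087 (adjusted p = 0.159) in KO CMS and -0.15 (adjusted p = 0.00377) in WT CMS, and Csnk1e of 0.39 (adjusted p = 0.000243) and 0.2 (adjusted p = 0.00371). Usp2, a deubiquitinase under clock control, was at most 3.45 FPKM in any library. It fell with log2 fold changes of -1.43 (adjusted p = 5.87e-05) in KO CMS, -1.57 (adjusted p = 4.29e-05) in KO FBS, -1.71 (adjusted p = 0.0001) in WT CMS and -1.57 (adjusted p = 0.000175) in WT FBS. Timeless also serves at the replication fork in mammals. It fell with log2 fold changes of -3.25 (adjusted p = 7.94e-06), -1.82 (adjusted p = 0.000214), -1.38 (adjusted p = 4.78e-07) and -1.06 (adjusted p = 3.21e-06) in the same order. The genes of dividing cells given above fell beside it, and their part in its value was not tested. Noct, a rhythmic NADP(H) phosphatase, rose with CMS in KO cells (log2 change 1.19, SE 0.218, adjusted p = 0.00131) and fell with CMS in WT cells (log2 change -0.63, SE 0.125, adjusted p = 0.00132). The difference between these responses was 1.82 (adjusted p = 4.45e-05) on the log2 scale.

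**Figure D5:**
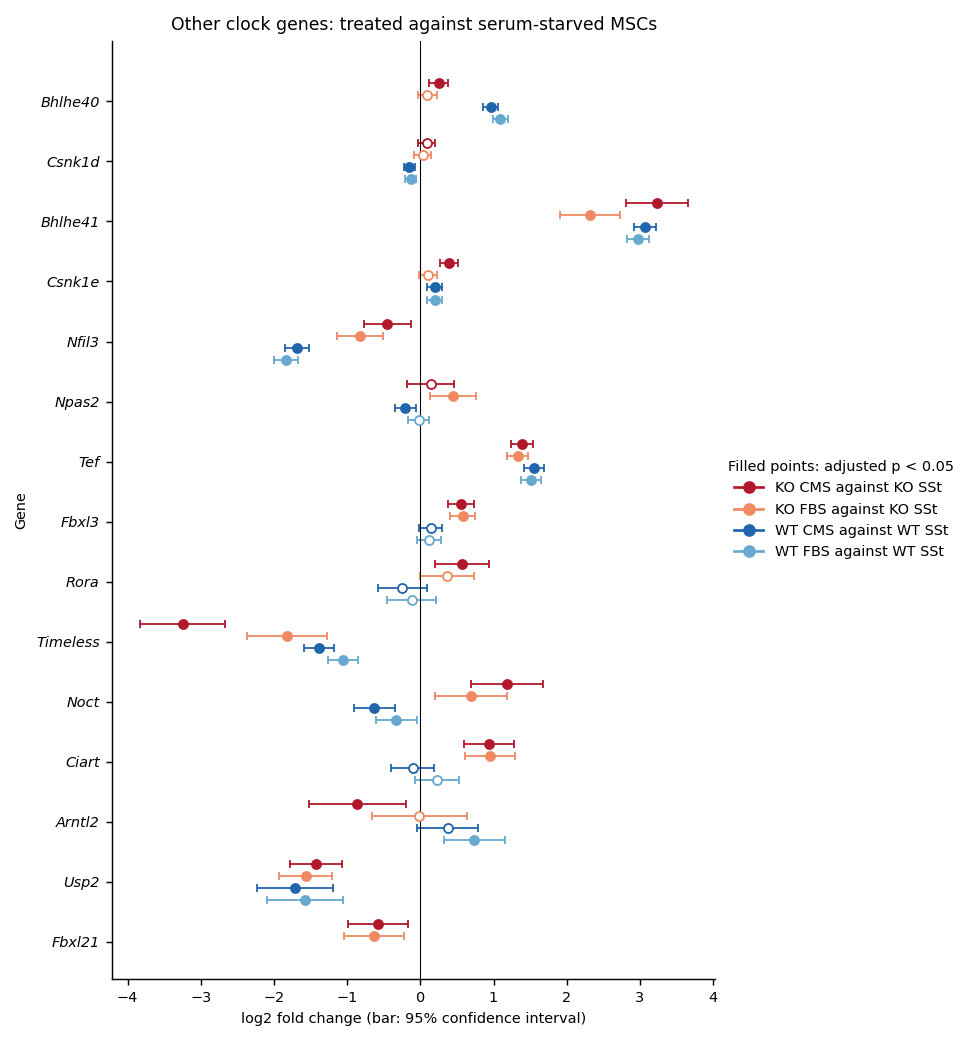
Log2 fold change (x axis) of 15 other clock genes, from the highest mean FPKM at the top, in KO CMS, KO FBS, WT CMS and WT FBS against the SSt group of the same genotype, with 95% confidence intervals and filled points for an adjusted p under 0.05. Bhlhe41 lies furthest to the right (2.32 to 3.23) and Timeless in KO CMS furthest to the left (-3.25).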

How the data were processed

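RNA-seq was measured in 18 libraries, 3 in each of 6 groups. The sequencing and counting were done by the authors, and 2 tables were deposited, with 9 KO and 9 WT libraries. The deposited counts are raw reads per gene, and the deposited FPKM values are those counts divided by transcript length and library total by the authors, with 1e-04 written for a count of 0. Bowtie 0.12.2 and mm10, a mouse build, are listed in the submitters' processing notes, while the gene identifiers are rat Ensembl ones, so no coordinates of the files were printed. Whether these were used for the 2 tables, and the counter, annotation version and strand setting, were not given in the sources used here. No value column was left unmapped.

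Counts were tested with edgeR 4.0.16 (R 4.3.3, TMM scaling, quasi-likelihood F test, Benjamini-Hochberg adjustment over all genes tested), with the 9 libraries of a genotype in 1 fit and all 18 in another for KO against WT and for the interaction. Genes that reached 1 FPKM in 3 or more libraries were tested, 12888 in KO, 12916 in WT and 13317 in all 18. A gene passed at an adjusted p under 0.05 whatever its fold, and a fold of at least 2 was counted beside it. SEs were taken from the F statistic and intervals cover 95%. The code was tested on simulated counts. Alternatives were DESeq2 1.42.0, RLE, upper-quartile and library-size scaling, no filter and FPKM of at least 5, limma 3.58.1 on log2(FPKM + 1), log2(FPKM + 0.1) and log2(FPKM + 5), a replicate block, only the groups compared, and each library left out. For KO against WT within a treatment, the replicate block compares the genotypes at the level of replicate 1, not over the mean of 3 libraries. Tables and figures were made in Python 3.11.15 with pandas 2.3.3 and matplotlib 3.10.9.

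The 10 genes, the list of 18 others, the marker lists and the motifs were chosen with earlier results of these data known. Of the 18 others, the text names the 4 with the highest mean FPKM and each that passed with a fold of at least 2 against SSt. For likeness, the genes with the highest Pearson's r are named. Depth was 56083000 to 71847969 counts per library, and replicates differed by more than counting error, with a chi-square of 18.61 to 147.17 per degree of freedom.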

Additional observations from a re-analysis of the deposited data

Results flagged for a closer look

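The response to treatment differed between KO and WT cells for 5 clock genes, in 8 tests of the difference itself (KO response minus WT response, each against its own SSt, edgeR's quasi-likelihood F test over all 18 libraries). For CMS 5 of 10 differed, where 21.6% of all genes were higher and 23.2% lower in this test, and for FBS 3 of 10, where 18.5% were higher and 17.2% lower, so the counts are near the background. Per3 responded less in KO cells, by -1.505 on the log2 scale for CMS (adjusted p = 6.32e-07) and -0.878 for FBS (adjusted p = 9.79e-05). In KO cells its fold changes were 0.3 for CMS and 1.11 for FBS on that scale, against 1.81 and 2 in WT cells. Per1 did not pass in KO cells, although in KO CMS it passed as lower in 5 of 17 alternatives, and it fell in WT cells, a difference of 0.796 for CMS (adjusted p = 0.000691) and 0.94 for FBS (adjusted p = 0.000301). Cry1 rose with CMS in KO cells, a difference of 1.06 (adjusted p = 0.00106), with all 3 KO CMS libraries above all 3 WT CMS libraries. Per2 differed by -0.586 for CMS (adjusted p = 0.00211). Arntl differed by 0.393 for FBS (adjusted p = 0.00394) and 0.316 for CMS (adjusted p = 0.0112), the CMS value being lost in 5 of 23 alternatives. For Per1, Per2 and Per3 the SSt libraries of the genotypes also differed, so the difference in response holds the difference between starved cells, and the genotype cannot be told apart from the table its libraries stand in.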

How the results depend on the processing

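Of 63 clock gene results that passed in at least 1 setting, 1029 of 1119 alternative values kept both direction and side of the threshold, 65 lost the call, 24 gained it and 1 turned round. Of the 50 results called with all libraries, 39 were never lost. The value that turned round was Cry2 in KO FBS against WT FBS, which was not called with all libraries (-0.061) and ran from -0.164 to 0.01 when 1 library was left out, the highest without KO FBS replicate 1. A further 47 values passed in no setting, and 27 of them changed sign at sizes up to 0.137 on the log2 scale. The number of clock genes that passed moved by over 1.5 times in 3 comparisons. Between KO CMS and KO FBS it was 4, and it was 1 with the replicate block, 1 with only the groups compared, and 1 to 5 with 1 library left out. The count over all genes moved in the same settings, at 1227 with the block and 891 with only the groups compared, against 868 higher and 1042 lower. Between KO FBS and WT FBS it was 2, and it was 1 with library-size scaling, with no filter, with an FPKM of at least 5, with limma at pseudocounts of 1 and 0.1, with the replicate block and with only the groups compared, and 1 to 3 with 1 library left out. Between WT CMS and WT FBS it was 0, and 0 to 1 with 1 library left out. With an FPKM of at least 5, clock genes under that level were not tested. The cause of these changes was not tested.

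No pairing of the libraries by the replicate numbers in the labels was seen. Same-numbered libraries' deviations from their group means correlated at -0.247 to 0.137 in KO and -0.094 to 0.06 in WT, with 1 of 9 and 0 of 9 above 0.1. With 3 libraries in a group this check cannot show that the libraries were not paired. The replicate block moved no other count of the 10 clock genes by over 1.5 times. Over all genes the block gave 4070 between KO SSt and WT SSt, against 3221 higher and 3093 lower without it, and 2165 between KO FBS and WT FBS, against 1795 higher and 1634 lower. In these comparisons of KO with WT the block set the genotypes against each other at the level of replicate 1, not over the mean of 3 libraries. These counts therefore do not measure an effect of pairing. Library-size scaling, which the FPKM values share, moved the median log2 fold change of all genes to -0.113 in KO CMS against KO SSt, -0.188 for the difference in CMS response and -0.121 for that in FBS response.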
